A study of Mus musculus with 4 samples.

Results

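The cells described here are αLPs of the bone marrow, lymphoid progenitors sorted as Lin−CD127+FLT3−LPAM-1+, that carried transcripts of *Il1rl1*, the gene of the IL-33 receptor ST2. They were taken from WT mice and from G3SEKO mice, both C57BL/6 per the labels of the first experiment, where G3SEKO means that the tandem super-enhancers linked to *Gata3* had been deleted in the germline with CRISPR-Cas9. The labels give no age, treatment or further allele, and cells of several mice were pooled for each genotype. Single cells of both genotypes were marked with hashtag antibodies, combined and sequenced by TAS-Seq, a whole-transcriptome method, in 2 experiments. A cell was chosen by its own reads: on the scale L = ln(1 + reads per 10000), L of *Il1rl1* and of *Id2* had to be at least 1, and L of *Mki67* and of *Il18r1* below 1. These 4 genes therefore chose the cells, and their levels are given as a description only. Of the 8663 cells listed, 8422 had enough reads and few enough mitochondrial reads, and 3705 met all 4 gene limits and are called members here. WT supplied 3692 of the members, 360 in experiment 1 and 3332 in experiment 2. G3SEKO supplied 13, all in experiment 2.

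ILC2s are tissue lymphocytes that release type 2 cytokines when IL-33 binds ST2. In the bone marrow their precursors express the IL-18 receptor chain *Il18r1* and progenitor genes such as *Tcf7* and *Zbtb16* before *Il1rl1* and the IL-2 receptor chain *Il2ra* come on. GATA3, a zinc finger transcription factor that binds GATA motifs, is needed to form and to keep ILC2s. The question put to these cells was whether the few that express *Il1rl1* without the enhancer carry *Gata3* and the other ILC2 transcripts at the WT level.

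There was no G3SEKO member in experiment 1, so the genotypes could be compared in experiment 2 alone, with 1 sample of each. No test of the members was possible for that reason, and the values below have no replicate check. The 13 G3SEKO members held 389123 reads and a median of 20273 reads and 1705 genes per cell. The 3332 WT members of the same experiment held 135933801 reads and medians of 30526.5 reads and 1884 genes. Levels are CPM, the reads of a gene per 1000000 summed reads. The 95% intervals of CPM (exact Poisson) and of log2 differences take each read as independent. Copies of a molecule each count as a read, and a single cell can supply most reads of a gene. These intervals are therefore too narrow for the sampling of molecules or of cells. The intervals of shares of cells (exact Clopper-Pearson) take each cell as independent, and no interval covers differences between mice. Of 5441 genes with at least 50 CPM in either genotype, 27.4% were at least 2-fold lower and 30.3% at least 2-fold higher in the G3SEKO sum (1492 and 1648 genes). With TMM scaling of the sums the same rule gave 1784 lower and 1121 higher genes. Between the WT members of the 2 experiments only 5.23% of 4571 genes lay 2-fold apart. A fold of 2 in the 13 cells is thus a common event. A gene low in WT passes that limit only through a high G3SEKO value, often from 1 cell, so the gene lists below are counted over genes with at least 50 CPM in WT members, a filter added after the values were seen. Of 4182 such genes 35.7% were at least 2-fold lower and 14.3% at least 2-fold higher, with a median log2 difference of −0.36.

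The hashtag label of experiment 2 places both hashtags under WT, and the cells called G3SEKO are those with hashtag A0303. *1700061F12Rik*, a lincRNA gene at chr2:9189515-9197477 (GRCm38) inside the deleted interval, was used as a check. In experiment 2 it had 255 reads in 16 of 6075 WT cells and 1 read in 1 of 1447 G3SEKO cells. In experiment 1, where the label names the hashtags of both genotypes, it had 803 reads in 9 of 737 WT cells and 1 read in 1 of 63 G3SEKO cells. So few cells carried this transcript that it is a weak check. *Gm13219*, a lincRNA gene that overlaps the interval and extends past its end, had 6 reads in WT and 3 in G3SEKO cells of experiment 2, too few to compare. Among the 13 G3SEKO members, 11 had at most 1.48% of their hashtag reads from the WT hashtag. Cell 3, the shallowest with 7921 reads, had 55.3% (88 WT and 71 G3SEKO hashtag reads), and cell 12 had 18.2%. Both were G3SEKO by the authors' call, which rests on normalized hashtag reads, and with each hashtag divided by its total the WT share was 16.2% and 3.35%. The cells are numbered here from 1 to 13 by falling *Gata3* level. The experiments shared 11 cell barcode numbers, 1 of them among the members.

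The genotypes differed in where *Il1rl1*-expressing cells lay on the *Il18r1* scale. Of the *Id2*-expressing cells of experiment 2, 65.0% of WT (95% interval 63.6 to 66.3) and 1.12% of G3SEKO (0.599 to 1.91) were members. In experiment 1 these shares were 52.9% of 681 WT cells and 0 of 43 G3SEKO cells, for which the interval ends at 8.22%. Cells with both *Il1rl1* and *Il18r1* at or above the limit, which the rule leaves out, made up 3.57% of the WT and 3.11% of the G3SEKO cells of experiment 2. Among all nonproliferating cells past the *Il1rl1* limit, those high for *Il18r1* were therefore 183 of 3515 in WT (5.21%) and 36 of 49 in G3SEKO (73.5%, 58.9 to 85.1). In experiment 1 they were 58 of 418 in WT and both of the 2 G3SEKO cells. Precursors high for *Il18r1* and below the *Il1rl1* limit were 6.88% of the WT cells and 67.4% of the G3SEKO cells when counted in experiment 2.

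**Figure D1:**
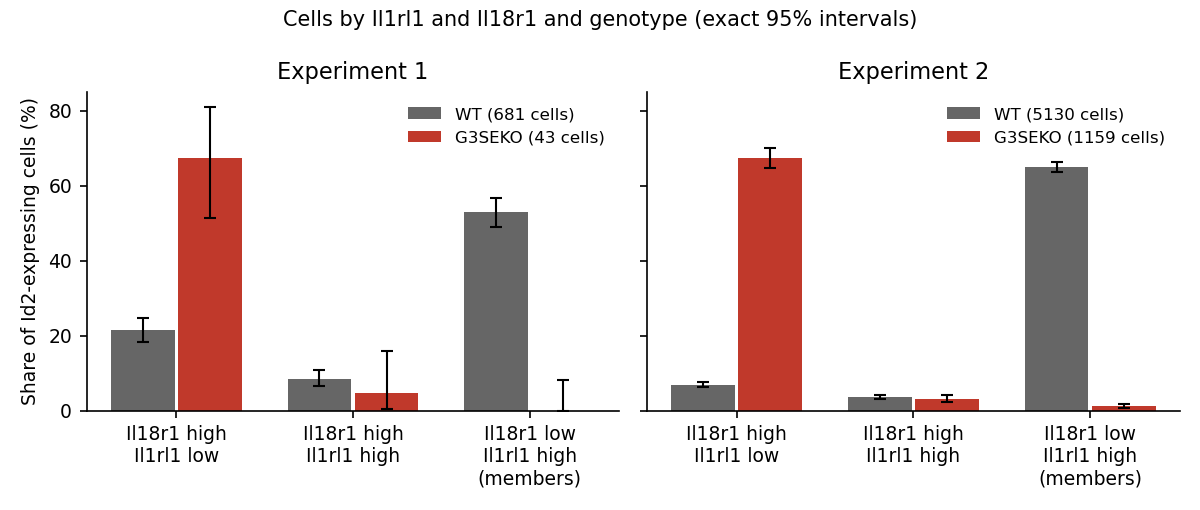
Share of Id2-expressing cells (%) in 3 classes set by Il18r1 and Il1rl1, for WT (grey) and G3SEKO (red) in each experiment, with exact 95% binomial intervals. G3SEKO cells lay mostly in the Il18r1-high Il1rl1-low class (67.4% in both experiments), and the share of members was 65.0% in WT and 1.12% in G3SEKO cells of experiment 2.

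The limits themselves lay close to the cells. In WT members of experiment 2, L of *Il1rl1* reached 5.02 with a median of 2.53, and the nearest WT cell outside had 0.996. In G3SEKO members it reached from 1.21 to 3.97 with a median of 1.88, and the nearest G3SEKO cell outside had 0.874. For *Il18r1* the highest G3SEKO member had L = 0.921 and the lowest cell left out 1.05. No *Il18r1* read was found in 2811 of 3332 WT members (84.4%) and in 4 of 13 G3SEKO members. Even below the *Il18r1* limit, then, most G3SEKO members carried some *Il18r1* and most WT members none.

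*Il1rl1* (chr1:40429570-40465415) and *Il18r1* (chr1:40465552-40500854) lie in the same orientation on chromosome 1, and *Gata3* (chr2:9857078-9890034) and *Il2ra* (chr2:11642807-11693193) both lie on chromosome 2 (GENCODE, GRCm38). The promoters of 13 of 16 genes that the results turn on were found in the RefSeq promoter table (GRCm38.p6), and the 250 bases before each start were searched on both strands for the motif of GATA factors, spelled AGATAA here, whose reverse complement is TTATCT. The motif stood in both promoters of *Il1rl1* and in that of *Il9r*, a cytokine receptor gene without a read in the G3SEKO members, and in none of the other 11 genes, *Gata3*, *Il2ra*, *Inpp4b* and *Tcf7* among them. Of 32851 promoters, 9.99% hold it. The sites are shown because *Il1rl1* is the gene that a cell had to express to be counted, with the motif in capitals and 12 bases on each side.
Il1rl1, first promoter, chr1:40429341-40429370, plus strand: gaaggtccatggAGATAAgggtaaaactgg
Il1rl1, second promoter, chr1:40439514-40439543, plus strand: aaacagcattgtTTATCTcagcttcactga
Il9r, distal site, chr11:32200485-32200514, minus strand: ctgtcactcaggAGATAAatgtctgccatc
Il9r, proximal site, chr11:32200292-32200321, minus strand: gactcatctctcTTATCTcctggatcaggt
A match of these letters is a description of the sequence, and no binding was measured in these files.

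*Gata3* was lower in the G3SEKO members. Its level in the WT members of experiment 1 was 1365, 1342 and 1289 CPM for the 3 hashtags, and 1334 CPM over all. In experiment 2 it was 1029 CPM in WT members and 249 CPM (202 to 304) in G3SEKO members, a log2 difference of −2.05 (−2.35 to −1.76). The WT value of experiment 2 lay above the interval of the G3SEKO value, an interval that takes each read as independent. In the 13 G3SEKO members the reads of *Gata3* were 59, 23, 2, 6, 6 and 1 in cells 1 to 6 and none in the other 7. Their median was therefore 0 CPM, against 705 CPM in single WT members of experiment 2 and 1189 CPM in those of experiment 1. Every G3SEKO member was below the WT median of 705 CPM, the highest reaching 624 CPM, but all 13 were within the 5th to 95th percentile of WT members (0 to 3134 CPM), a range that starts at 0, so that no cell could lie below it. Cell 1 held 60.8% of the *Gata3* reads, and without it the log2 difference was −3.00.

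A *Gata3* read was found in 6 of 13 G3SEKO members (46.2%, 19.2 to 74.9) and in 2959 of 3332 WT members (88.8%, 87.7 to 89.9). With every cell thinned to 6733 reads, 5 G3SEKO members (38.5%) and 79.7% of WT members kept one. For comparison, 22 of 31 WT cells with *Eomes* or *Klrd1*, natural killer or ILC1 genes, and with *Il1rl1* below the limit had a *Gata3* read (71.0%, 52.0 to 85.8) at a median of 48271 reads, and 45.2% after thinning. Such cells may express some *Gata3* themselves, so their share is no measure of free RNA, and the part of free RNA in the *Gata3* reads of G3SEKO members was not tested.

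The lower level of *Gata3* was also seen in G3SEKO cells on either side of the member limits. In cells high for both *Il1rl1* and *Il18r1* it was 1222 CPM in 183 WT cells and 323 CPM in 36 G3SEKO cells of experiment 2, and 1633 CPM in 58 WT cells and 211 CPM in 2 G3SEKO cells of experiment 1. In the *Il18r1*-high *Il1rl1*-low precursors it was 974 CPM in WT and 719 CPM in G3SEKO in experiment 1, and 784 and 443 CPM in experiment 2. These precursors were the only class with at least 3 cells in all 4 sums, the minimum set for a test, and edgeR's quasi-likelihood test with the experiment as a block gave a log2 difference of −0.59 (SE 0.152) and a Benjamini-Hochberg adjusted p of 0.9999 over 18182 genes. With each cell thinned to equal depth edgeR called *Gata3* in these precursors (log2 difference −0.60, adjusted p = 0.0379). Whether the difference in the members exceeds that in the precursors could not be tested, because one of the sums is empty. In the precursors edgeR called 0 genes (0% of those tested), with 384 genes at an unadjusted p under 0.05, and DESeq2 called 40 genes, 25 higher and 15 lower in G3SEKO. The p-values measure the spread between sums of 2 experiments only.

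A test that takes in the members was possible only without the *Il18r1* limit, in all nonproliferating *Il1rl1*-expressing cells, and was added after the values were seen. The G3SEKO sums then held 2 cells in experiment 1, below the minimum of 3 set for the members' test, and 49 in experiment 2, mostly cells high for *Il18r1*. The median log2 difference of all genes was −1.43. edgeR's quasi-likelihood test called 34 of 18965 genes (0.179%), 19 higher and 15 lower in G3SEKO. *Gata3* had a log2 difference of −2.22 (SE 0.487, adjusted p = 0.00454), and *Inpp4b*, *Ly6a*, *Il2ra*, *Cnot6l* and *Rnf128* were also called lower, *Tcf7* and *Il7r* higher. The call of *Gata3* was lost with RLE size factors (adjusted p = 0.999), with DESeq2 (adjusted p = 0.644) and without the block (adjusted p = 0.598). With RLE size factors, edgeR called 12 genes, *Inpp4b*, *Ly6a*, *Rnf128* and *Tcf7* among them but not *Il2ra*, *Cnot6l* or *Il7r*. DESeq2 called 14, of the genes named here only *Rnf128* and *Klrd1*, and without the block edgeR called 0 genes, with 1569 at an unadjusted p under 0.05. Of the 8 ILC1 and NK cell genes tested, *Klrd1*, *Nkg7* and *Il2rb* were called higher. *Il2rb*, a chain of the IL-2 and IL-15 receptors, had a log2 difference of 4.39 (SE 1.02, adjusted p = 0.0126), with G3SEKO reads in both cells of experiment 1 (1051 CPM) and in 11 of 49 cells of experiment 2 (102 CPM), against 14.0 and 17.8 CPM in WT. Its call held with no filter (adjusted p = 0.0188) and was lost with RLE size factors, DESeq2 and no block (adjusted p from 0.182 to 0.598), and the call of *Nkg7* was lost with RLE size factors, DESeq2, no filter and no block (adjusted p from 0.0504 to 0.598). *Klrd1* had reads in 1 of the 49 G3SEKO cells of experiment 2 (20.3 CPM) and in both cells of experiment 1 (1663 CPM), so its G3SEKO reads came from 3 cells in all.

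**Figure D2:**
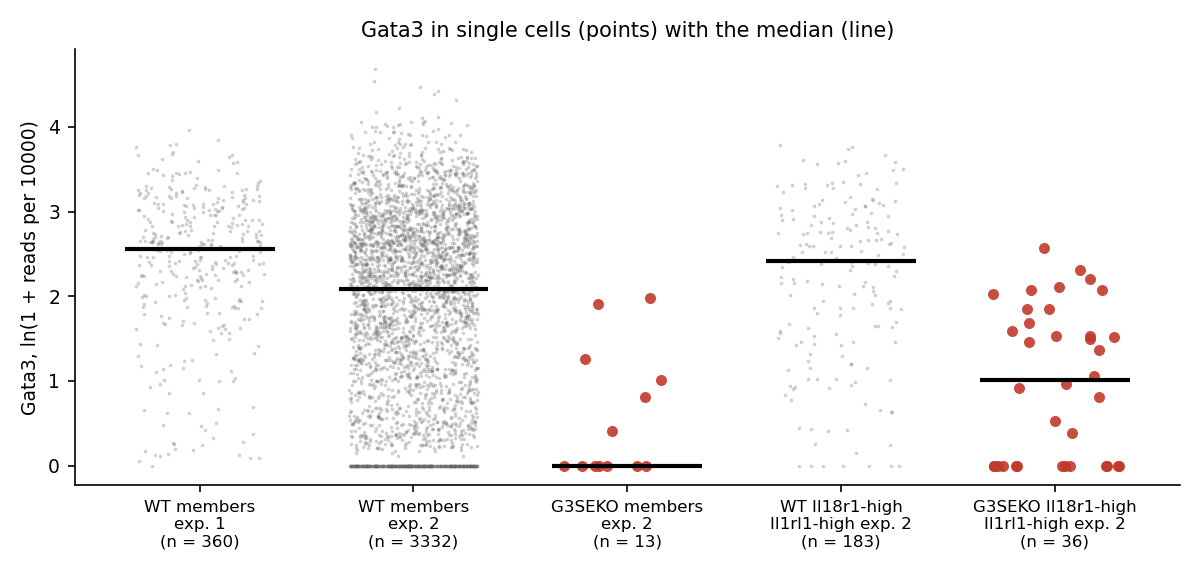
Gata3 in single cells as ln(1 + reads per 10000), with 1 point per cell and the median as a line, for WT (grey) and G3SEKO (red) members and, on the right, cells high for both Il18r1 and Il1rl1. The 13 G3SEKO members have a median of 0 and a maximum of 1.98, and the WT members of experiments 1 and 2 have medians of 2.56 and 2.09, while the cells on the right have medians of 2.41 in WT and 1.01 in G3SEKO.

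Beside *Il1rl1*, which the rule used, the study named *Slc7a8*, *Cnot6l*, *Ptpn13* and *Inpp4b* as candidate targets of GATA3, and 4 of 4 were at least 2-fold lower in the G3SEKO members, beside a background of 35.7%. The study chose them on these cells, so their direction is not independent evidence. *Slc7a8*, an amino acid transporter, had no read in 13 G3SEKO members and 157 CPM in WT members of experiment 2, where it was found in 34.4% of cells. Taking the floor of 3 reads in the G3SEKO sum (7.71 CPM), it was at least 20.4-fold lower. *Ptpn13*, a protein tyrosine phosphatase, had no G3SEKO read either and 217 CPM in WT, at least 28.1-fold lower. *Inpp4b*, a phosphoinositide phosphatase, had 1162 CPM in WT against 154 CPM in G3SEKO, where 3 of 13 cells had its reads. *Cnot6l*, a deadenylase of the CCR4-NOT complex, was at 1022 and 185 CPM, with reads in 5 of 13 G3SEKO cells and in 85.8% of WT cells. *Zfp36l1*, which promotes mRNA decay and was named in the study as a gene without GATA3 binding, was at 873 and 419 CPM, and 63.8% of its G3SEKO reads came from 1 cell. In the G3SEKO cells high for both receptors, *Slc7a8* and *Ptpn13* were likewise at 0.989 and 0.495 CPM, against 147 and 127 CPM in the corresponding WT cells.

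Of the ILC2 receptor and surface genes, 13 of 18 reached 50 CPM in WT members, 6 of these were at least 2-fold lower in G3SEKO, none at least 2-fold higher, and 7 lay between. Their median log2 difference was −0.96, beside −0.36 over all 4182 genes, of which 35.7% were at least 2-fold lower. *Il2ra*, which encodes CD25, had 603 CPM in WT against 139 CPM in G3SEKO (104 to 181), a log2 difference of −2.12. Its G3SEKO reads were 42 in cell 7 and 12 in 5 further cells, and the level without cell 7 was 32.3 CPM. In WT members of experiment 1 its level was 560 CPM, and 592, 461 and 621 CPM by hashtag. *Ly6a*, which encodes Sca-1, was at 1371 and 301 CPM and was found in 5 of 13 G3SEKO cells. *Il9r* had no G3SEKO read and 126 CPM in WT, at least 16.3-fold lower. *Cysltr1*, a leukotriene receptor, was at 359 and 154 CPM, with G3SEKO reads in cells 4 and 5 alone. *Nmur1*, the neuromedin U receptor, and *Cd200r1* were the other 2 lower genes, each with reads in 1 G3SEKO cell. Over all 18 genes, with no limit on the WT level, 10 were at least 2-fold lower, as were 20% of all 24545 genes with a read in the members. These include *Crlf2*, *Klrg1*, *Il4ra* and *Il1rap*, which were under 50 CPM in WT and had no G3SEKO read.

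Other surface genes of ILC2s with at least 50 CPM in WT members did not pass the 2-fold limit. *Icos*, a costimulatory receptor, had 656 CPM in WT against 337 CPM in G3SEKO, but 82.4% of the G3SEKO reads came from cell 5. *Il17rb*, a subunit of the IL-25 receptor, was at 549 and 360 CPM, with reads in 4 of 13 cells. *Il7r*, which encodes CD127 and was used in the sort, was at 2104 CPM in WT and 3392 CPM (3212 to 3580) in G3SEKO, with reads in 13 of 13 cells. *Thy1* was at 363 and 560 CPM and *Il2rg*, the common gamma chain, at 751 and 830 CPM. *Itga4* and *Itgb7*, which encode the integrin chains of LPAM-1 and were also used in the sort, were at 912 and 1033 CPM and at 522 and 553 CPM. The sorted surface proteins therefore had transcripts in both genotypes within 2-fold of each other.

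**Figure D3:**
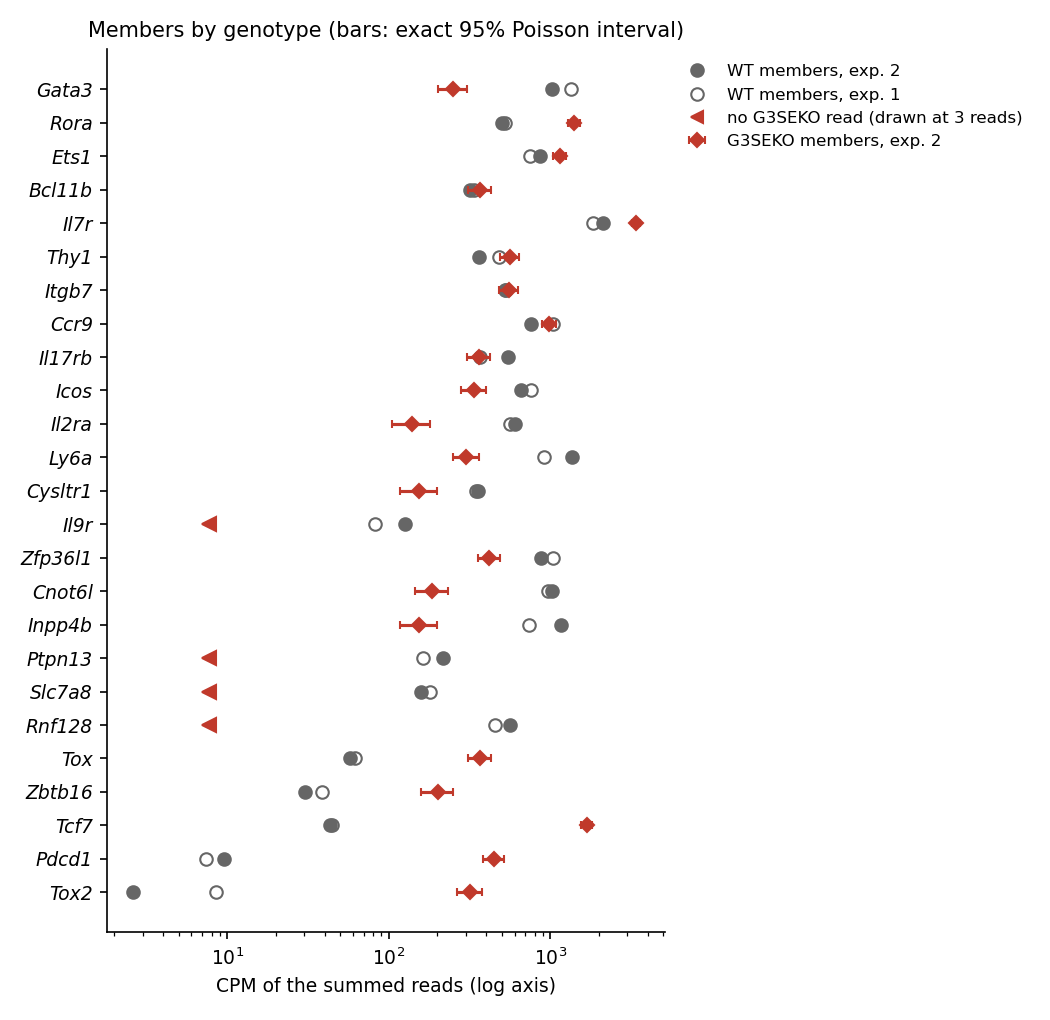
Level of genes named in the text in the members as CPM of the summed reads on a log axis, for WT of experiment 2 (filled circles), WT of experiment 1 (open circles) and G3SEKO of experiment 2 (red diamonds with exact 95% Poisson intervals; arrowheads at 3 reads mark genes without a G3SEKO read). Il2ra, Ly6a, Inpp4b and Cnot6l lie below both WT values, Tcf7, Pdcd1 and Tox2 above both, and Itgb7 and Bcl11b beside them.

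Among 7 ILC2 transcription factors that reached 50 CPM in WT members, other than *Id2*, *Gata3* was the 1 lower gene, *Rora* was the 1 gene at least 2-fold higher, and 5 lay between. *Rora*, a nuclear receptor needed for ILC2s, had 499 CPM in WT against 1398 CPM in G3SEKO, and 750 CPM without the cell that held most of its reads. *Tcf7*, the gene of TCF-1, had 43.0 CPM in WT against 1678 CPM in G3SEKO, a log2 difference of 5.29 (5.17 to 5.40). Cell 1 supplied 531 of its 653 reads, but 9 of 13 G3SEKO cells had a read, against 17.6% of WT cells, and the level without cell 1 was 414 CPM. After thinning, 9 of 13 G3SEKO cells and 8.22% of WT cells had a *Tcf7* read. *Bcl11b*, a factor of committed ILC2s, was at 320 and 365 CPM, and *Ets1* at 865 and 1144 CPM. *Gfi1*, *Maf* and *Nfkb1* also lay within 2-fold.

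Progenitor genes were low in WT members, and 5 of 12 reached 50 CPM there. Of these, *Tox* and *Pecam1* were at least 2-fold higher in G3SEKO, *Ikzf3* and *Il18rap* lower, and *Cd27* lay between. Over all 12 genes, with no limit on the WT level, 7 were at least 2-fold higher with at least 3 G3SEKO reads, as were 9.41% of all 24545 genes with a read in the members. A gene low in WT counts here only through its G3SEKO reads, so nothing is read from that count, and without the cell that held most reads of each gene only 3 were, *Pdcd1*, *Tox2* and *Cd7*. *Pdcd1*, which encodes PD-1, had 9.50 CPM in WT against 447 CPM in G3SEKO, where cells 1, 3, 6 and 13 had 63, 53, 31 and 27 reads. It was found in 3.09% of WT members. *Tox* and *Tox2* encode HMG-box factors of lymphoid progenitors. The level of *Tox* was 57.6 CPM in WT against 365 CPM in G3SEKO, and that of *Tox2* was 2.60 against 319 CPM. For *Tox*, 88.7% of the G3SEKO reads came from cell 1, and the level without it was 54.3 CPM. The reads of *Tox2* came from cells 1 and 3 alone. *Zbtb16*, which encodes PLZF, was at 30.4 and 200 CPM, and 98.7% of these reads were from cell 1. *Pecam1* was at 57.0 and 126 CPM, and 43.1 CPM without its top cell, and all reads of *Kit* came from 1 cell. *Ikzf3* was at 152 and 43.7 CPM and *Il18rap* at 65.7 and 10.3 CPM. Cell 1 was the largest source of reads for *Pdcd1*, *Tox* and *Zbtb16*, and cell 3 for *Tox2*.

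**Figure D4:**
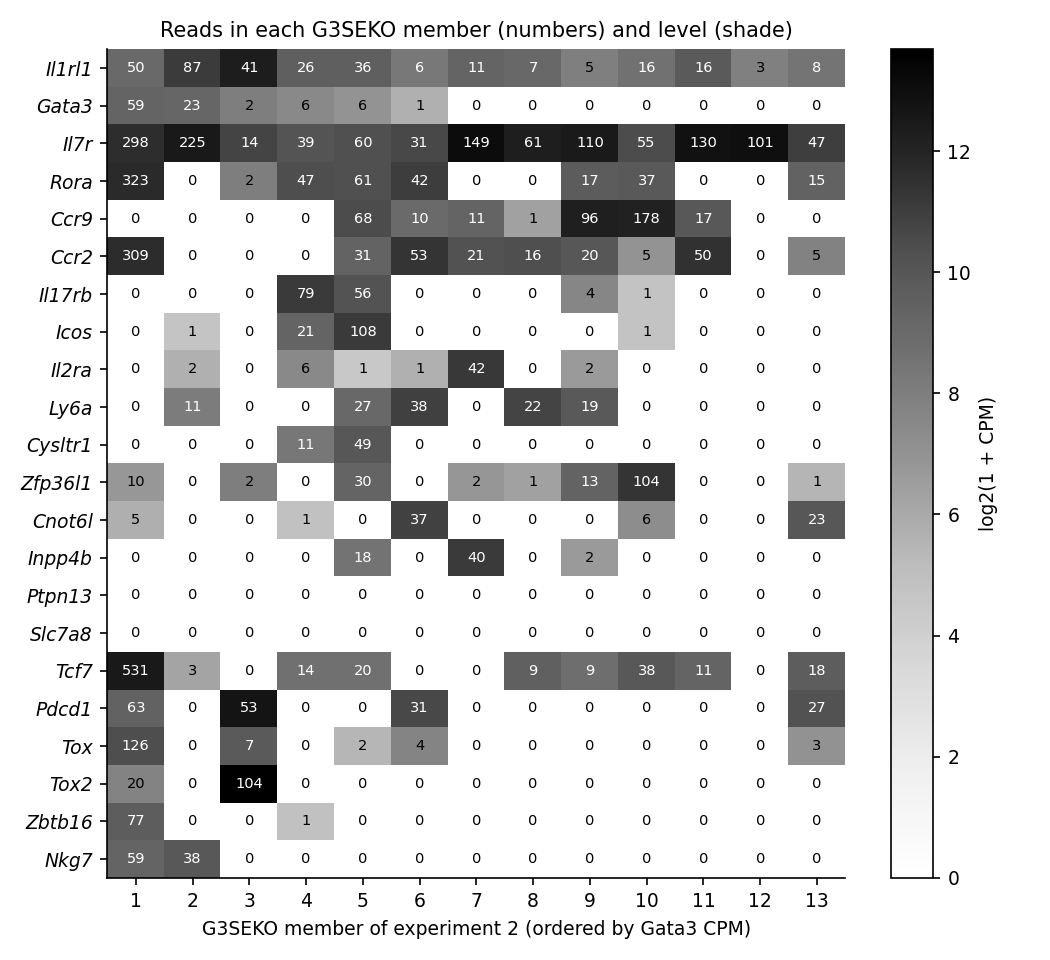
Reads of genes named in the text (rows) in each of the 13 G3SEKO members (columns, ordered by Gata3 CPM), with the number of reads written in each field and log2(1 + CPM) as the shade. Gata3 reads are in 6 cells, Tcf7 reads in 9, Il7r reads in 13, and Ptpn13 and Slc7a8 reads in none.

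To place single cells between precursor and ILC2, 2 gene groups were taken from the WT cells of experiment 1 alone, which hold no G3SEKO member. Genes at least 4-fold higher in members than in *Il18r1*-high *Il1rl1*-low precursors, with at least 50 CPM, formed a rising group of 69 genes, and genes at least 4-fold lower formed a falling group of 113. The 4 rule genes, ribosomal protein genes, mitochondrial genes and genes whose symbols start with Gm were left out. In experiment 2, 60 rising genes had at least 50 CPM in WT members, and 44 of these were at least 2-fold lower in G3SEKO members, 16 within and 0 higher, with a median log2 difference of −2.22. Of all 4182 genes with that WT level, 35.7% were lower and 14.3% higher, with a median of −0.36. Of all 69 rising genes, 47 were lower, 2 higher and 20 within. Of all 24545 genes with a read in the members, 20% were lower by the same rule, which is no matched background for genes chosen as high in WT members. Falling genes are low in WT members by their choice, and 10 of 113 had 50 CPM there, 6 of them at least 2-fold higher in G3SEKO, 1 lower and 3 within, but 1 of the 6 was higher without its top cell. Of all 113, 65 were at least 2-fold higher, 15 lower and 12 within, 21 were at or under the floor of 3 reads in both genotypes, and 27 remained higher without the cell that held most reads of the gene. The 9.41% of all genes is no matched background for genes chosen as low in WT members, and nothing is read from the 65.

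Rising genes took 1.68% of the reads of WT members and 0.827% of those of G3SEKO members in experiment 2. This share was 1.17% and 0.708% in WT and G3SEKO cells high for both receptors, and 0.340% and 0.338% in WT and G3SEKO precursors. Falling genes took 0.265% of reads in WT members and 1.59% in G3SEKO members, 0.366% and 1.52% in WT and G3SEKO cells high for both receptors, and 2.01% and 2.13% in precursors. Cell 1 held 24.3% of the reads of the G3SEKO members, and without it, an alternative added after the values were seen, their falling share was 1.04% and their rising share 1.06%. On both measures the G3SEKO members lay between WT members and precursors, with and without cell 1. The precursors of the 2 genotypes lay close together.

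Cell by cell, 7 of 13 G3SEKO members were below the 5th percentile of WT members (0.870%) in rising genes, 6 were within the 5th to 95th percentile and none was above. In falling genes 9 were above the 95th percentile (0.656%), 4 were within and none was below. With cells thinned to 6733 reads these counts were 7 and 8. Both shares were within the WT range in 2 of 13 G3SEKO members (15.4%, 1.92 to 45.4), cells 8 and 9, and in 81.2% of WT members. Cell 4 had a rising share of 2.37%, above the WT median of 1.68%, together with 79 reads of *Il17rb*, 21 of *Icos* and 6 of *Gata3*. Cell 7, with 1.40%, had 42 reads of *Il2ra* and 40 of *Inpp4b* without a *Gata3* read. Cells 1, 3, 12 and 13 had falling shares of 2.32% to 4.39%, and 1 of 3332 WT members reached that range. The 13 cells were thus not uniform. Cells 3 and 12, whose hashtags were the least clear, are among the 9 above the WT range in falling genes.

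**Figure D5:**
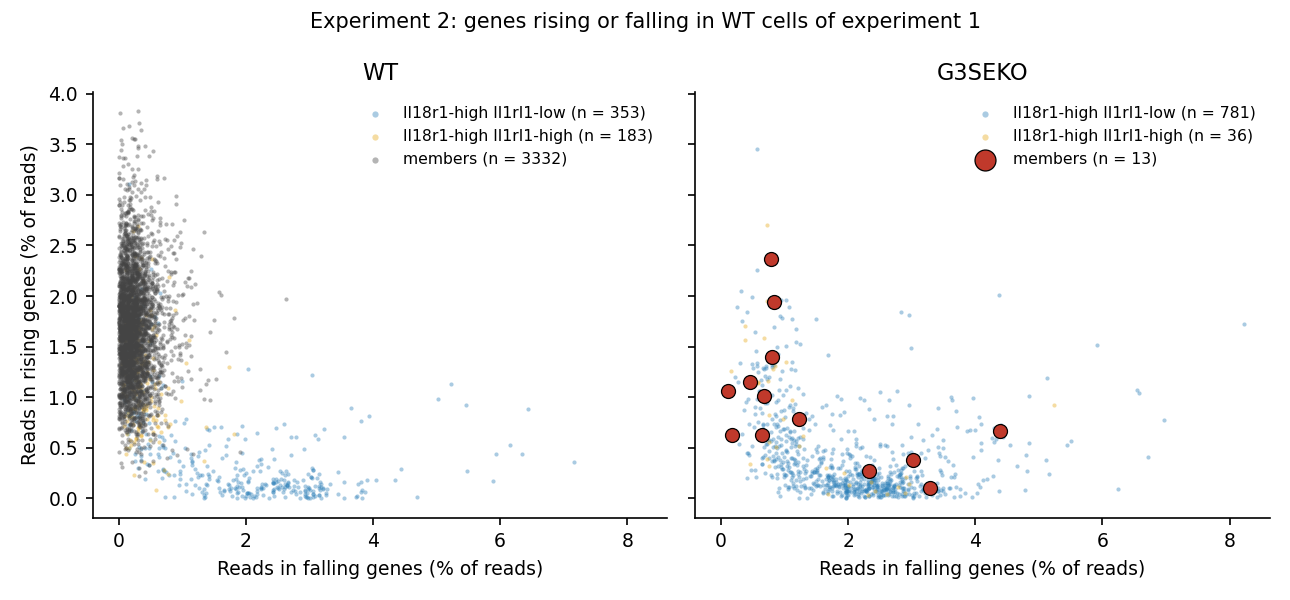
Share of each cell's reads (%) in rising genes (vertical) against falling genes (horizontal) in experiment 2, for WT (left) and G3SEKO (right), with 1 point per cell. WT members lie at medians of 1.68% rising and 0.212% falling, and the 13 G3SEKO members (large red points) at medians of 0.780% and 0.804%.

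WT members in which no *Gata3* read was found offered a further comparison. These 373 cells had a median rising share of 1.68% and a falling share of 0.210%, and the 2959 WT members with a *Gata3* read had 1.68% and 0.212%. A cell without a *Gata3* read can still express the gene. The 7 G3SEKO members without a read had rising shares of 0.271% to 1.40%.

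Among rising genes, the 3 most abundant in WT members of experiment 1 behaved differently from each other. *Lztfl1* had 912 CPM in WT against 1442 CPM in G3SEKO members of experiment 2, *Ccr9*, a gut homing receptor, at 755 and 979 CPM, and *Ly6a* at 1371 and 301 CPM. In all, 11 of 64 rising genes with 50 CPM in either genotype were at or above the WT level in G3SEKO. *Rnf128*, which encodes the E3 ubiquitin ligase GRAIL, had the largest bound below WT of the rising genes, of which 19 of 69 had no G3SEKO read and so give bounds only. It had 566 CPM in WT, with reads in 64.8% of cells, and had no read in the G3SEKO members, at least 73.5-fold lower. In the G3SEKO cells high for both receptors it was at 1.48 CPM, against 253 CPM in WT. *Elovl5*, a fatty acid elongase, was at 345 and 10.3 CPM, and *Lpcat2* at 223 CPM in WT without a G3SEKO read. Among falling genes, *Trbc1*, a constant region of the T cell receptor beta locus, had 268 CPM in WT against 1696 CPM in G3SEKO, with reads in 12 of 13 cells. *Myb*, a progenitor factor, was at 1.84 and 463 CPM, in 3 cells.

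With G3SEKO sums under 3 reads set to 3 reads, the 10 genes furthest below WT were *Rnf128*, *Elovl5*, *Nfkbiz*, *Lpcat2*, *Ptpn13*, *Tecr*, *Nup210*, *Irf1*, *Mdm4* and *Ehmt2*. They had 0 to 5 reads in the G3SEKO members and 188 to 566 CPM in WT members. In the cells high for both receptors in experiment 2, 4 of the 10 were not lower in G3SEKO. There the WT and G3SEKO levels of *Tecr* were 265 and 275 CPM, with *Nup210* at 197 and 372 CPM, *Irf1* at 148 and 220 CPM, and *Mdm4* at 219 and 253 CPM. Among genes with reads in at least 4 G3SEKO cells, those furthest below WT were *Prelid1*, *Ppp4c*, *Scamp3*, *Kdm7a*, *Zdhhc20*, *Fis1*, *Tnfaip8*, *Appl1*, *Tnfrsf18* and *Cnot6l*, with log2 differences from −3.59 to −2.47. *Tnfrsf18*, which encodes GITR, had a level of 54.0 CPM in G3SEKO, and its log2 difference was −2.49. Those furthest above WT were *Cacna1e*, *Pdcd1*, *Tcf7*, *Zbtb18*, *Trdc*, *Zfp169*, *Tiam1*, *4930402H24Rik*, *Tiparp* and *Asb2*, with log2 differences of 3.60 to 5.84. Without its top cell, which held 93.2% of its reads, *Zfp169* was at 8.46 CPM against 5.88 CPM in WT, and *Tiam1*, with 80.1% from 1 cell, at 119 against 23.7 CPM. *Cacna1e*, a calcium channel subunit, was at 4.13 and 236 CPM with reads in 5 cells. In the cells high for both receptors, *Scamp3*, *Kdm7a*, *Zdhhc20*, *Fis1* and *Tnfaip8* were not lower in G3SEKO. Their WT and G3SEKO levels there were 123 and 160, 132 and 185, 141 and 301, 233 and 239, and 209 and 255 CPM. The rest of that lower list fell less than 2-fold, except *Cnot6l* (1296 and 531 CPM). Of the higher list, *Zfp169* (16.7 and 1.98 CPM) and *4930402H24Rik* (20.8 and 7.42 CPM) were lower there, the rest higher.

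Effector genes were sparse in both genotypes. Of 12, 4 reached 50 CPM in WT members, with 2 at least 2-fold lower and 1 at least 2-fold higher. *Alox5*, a lipoxygenase of leukotriene synthesis, was among the lower ones, with 281 CPM in WT and 134 CPM in 1 G3SEKO cell alone. The cytokine genes *Il5* and *Il13* were at 4.07 and 3.41 CPM in WT members and had no G3SEKO read, which is below what 3 reads allow. *Cd74* was at 226 and 712 CPM, from 2 G3SEKO cells.

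Among genes of bone marrow retention and homing, 5 of 11 reached 50 CPM in WT members, with 1 higher, 1 lower and 3 within. *Cxcr6*, the higher one, was at 387 and 830 CPM, with reads in 6 of 13 cells, and 674 CPM without its top cell. *Ccr2* was at 673 and 1311 CPM, and 682 CPM without cell 1. *S1pr4*, a sphingosine 1-phosphate receptor, was at 89.6 CPM in WT without a G3SEKO read. Of the immediate early genes, 7 of 10 reached 50 CPM in WT members, with *Egr1* and *Fosb* lower, *Dusp1* higher and 4 within. *Fos* was at 543 and 663 CPM in experiment 2 but at 8.56 CPM in WT members of experiment 1, so its level followed the experiment.

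Markers of other cells were mostly at or near 0. The 8 myeloid genes and 6 erythroid genes had no G3SEKO read, and their summed levels in WT members were 2.80 and 39.9 CPM. Of the 8 B lineage genes, *Cd79a* had no read in either genotype of experiment 2, and the summed level was 39.4 CPM in WT and 20.6 CPM in G3SEKO. Of the 10 T cell genes, *Cd3d*, *Cd3e* and *Cd3g* had no G3SEKO read, and the summed level was 233 CPM in WT and 293 CPM in G3SEKO, mostly *Lat* and *Themis*. The ILC1 and NK cell list summed to 35.4 CPM in WT and 272 CPM in G3SEKO, of which *Nkg7* made 249 CPM, from cells 1 and 2, while *Eomes*, *Tbx21*, *Klrd1* and *Ncr1* had no G3SEKO read. The ILC3 and LTi list summed to 1308 and 1164 CPM, mostly *Ltb*, and *Cxcr5* was at 0.574 and 72.0 CPM, from 2 G3SEKO cells. *Ccr6* had no G3SEKO read. Mast cell and basophil genes summed to 58.7 and 283 CPM, all of the latter *Cpa3*, with *Gata2* and *Gata1* without a G3SEKO read. *Gata3* was the 1 GATA family gene to reach 50 CPM. Of 13 cell cycle genes other than *Mki67*, 3 reached 50 CPM in WT members and all 3 lay within 2-fold. The part of other cell types in the results was not tested beyond these levels.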

How the data were processed

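Bone marrow αLPs of WT and G3SEKO mice were profiled in 2 experiments, each with an mRNA library and a hashtag library. Per the methods and the labels, the authors removed adapters, aligned reads with Bowtie2 to GRCm38, and deposited read counts, not normalized, for genes and for hashtags in every cell. Copies of a molecule were not collapsed. The tools named also include Seurat 4. Genotypes and doublets are the authors' hashtag calls; cells named doublet were left out and no expression-based caller was run.

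Cells needed at least 83012 reads (experiment 1) or 6733 reads (experiment 2), and at most 10% mitochondrial reads. The gene limits are those given above. The members and lists were chosen with earlier results of these data known. Reads were summed per genotype and experiment, since cells are not replicates and the hashtags are not stated to be separate mice. The planned edgeR test of the members needed 3 cells in every sum and was not run, as experiment 1 held 0 G3SEKO members. Genes were named by the fixed lists, by the study's own text, or as the 10 with the largest difference in each direction. That last rule asked for the same sign in both experiments, so experiment 2 alone was used, and for higher genes reads in at least 4 G3SEKO cells were required after the values were seen. A further list of lower genes with the same requirement was added then. G3SEKO sums under 3 reads were set to 3 reads (7.71 CPM) in bounds, medians and rankings. The filter on the WT level alone was added after the values were seen.

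Precursors were tested with edgeR 4.0.16 (TMM, filterByExpr, experiment as a block, Benjamini-Hochberg) in R 4.3.3, with DESeq2 1.42.0 as an alternative. On simulated counts with 200 genes changed 4-fold, the precursor test recovered 98.5% of them among 17827 genes, and the test without the *Il18r1* limit 93.5% among 18712. Each made 9 false calls. The simulation used a fixed dispersion not estimated from these sums and the same gene proportions in every sum. Only genes with at least the median number of reads were changed. The recovery is therefore no measure of the power of the tests on the real sums. Sums, intervals and thinning to 6733 reads were computed in Python 3.11.15 with scipy 1.17.1. Alternatives were thinning, other limits on *Il1rl1*, *Il18r1*, *Id2* and hashtag fold, other scalings, no filter, and leaving out single cells. Some genes of the lists are counted in the lists' totals but not reported singly here.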

Additional observations from a re-analysis of the deposited data

Results flagged for a closer look

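Cells that the authors named doublets were not used in the comparisons. Of 100 such cells in experiment 2, 20 met the limits on *Il1rl1*, *Id2*, *Mki67* and *Il18r1* (20%, 95% interval 12.7 to 29.2), more than the 13 G3SEKO members themselves. Their *Gata3* level was 645 CPM (601 to 692), between the 249 CPM of G3SEKO members and the 1029 CPM of WT members. The G3SEKO hashtag made up a median of 33.5% of their hashtag reads (10.5 to 66.0). Whether any of the 13 cells is a mixture of this kind was not tested.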

How the results depend on the processing

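The log2 difference of *Gata3* between G3SEKO and WT members, −2.05 as reported, was negative under all 13 alternatives computed. It was −2.67 with cells thinned to equal depth, −2.88 as a mean over cells, −1.54 with *Il1rl1* at 0.5 or more, −1.75 without the *Il18r1* limit, −4.68 in the 4 G3SEKO cells without an *Il18r1* read, −3.00 without the cell holding most *Gata3* reads and −2.41 with TMM scaling. The last 2 were chosen after seeing the data. Genes at least 2-fold lower and higher numbered 470 and 773 without the *Il18r1* limit, 3029 and 1079 without an *Il18r1* read, and 17866 and 2859 without the filter on low values. TMM and RLE scaling shifted all log2 differences by −0.37 and −0.30. The share of WT members with a *Gata3* read was 79.7% after thinning, and the rule applied to thinned cells kept 3029 WT and 15 G3SEKO cells of experiment 2.

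In precursors DESeq2 called 40 genes and thinned cells gave 10, *Gata3* among them (log2 difference −0.60, edgeR adjusted p = 0.0379). Without the *Il18r1* limit, RLE size factors gave 12 genes, DESeq2 14 and the fit without the experiment as a block 0 of 18965 (1569 at an unadjusted p under 0.05), with *Gata3* at −1.94, −1.94 and −2.23. The causes were not tested. In precursors the fit without the block called 0 genes, as with it. Tests of the members and of members against precursors were not run under any setting, because experiment 1 held no G3SEKO member, and leaving out an experiment leaves no residual degrees of freedom. In the sum of the 13 G3SEKO cells, 3 reads are 7.71 CPM.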
